A study of Mus musculus with 18 samples.

Results

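The levels of 10 maternal genes, called members here, were followed through mouse oocyte growth: Nlrp4a, Nlrp4b and Nlrp4f, Nlrp9a, Nlrp9b and Nlrp9c, Nlrp14, and the oogenesins Oog1, Oog3 and Oog4. They were taken by gene symbol, and each symbol matched 1 of the 53715 genes counted. RNA sequencing had been carried out on C57Bl/6j x CBA/J mouse oocytes of 3 stages, namely those of primordial follicles, those of primary follicles and metaphase II (MII) oocytes, each as sham and NTY, with 3 libraries in each of 6 groups and 18 libraries in all. The labels mark the samples as in vivo; the age of the mice, what NTY stands for and whether replicates came from separate animals are not given in the sources used here, so p-values measure the spread between these libraries only. As read from the labelled protocol, which is shared by all samples, the 12 follicle libraries came from laser-microdissected cells, whose RNA was pooled over collection caps of one oocyte stage, amplified linearly and captured for coding sequence, whereas the 6 MII libraries were made from collected oocytes with Smart-seq II. Stage and library method therefore cannot be told apart wherever MII oocytes are set against follicle oocytes.

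NLRP proteins carry a pyrin domain, a nucleotide-binding NACHT domain and leucine-rich repeats. Several of them sense danger signals and assemble inflammasomes in immune cells, but another branch of the family, which includes the Nlrp4 and Nlrp9 copies and Nlrp14, is known for transcripts in germ cells that are stored in the egg and lost in the early embryo. Oogenesins belong to the PRAME family of leucine-rich repeat proteins and are likewise known as oocyte products. Nlrp14 has been tied to the chromatin regulator Uhrf1 and to mitochondrial calcium through Slc8b1, and the Oog1 protein to the Ras pathway through Ralgds.

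In GRCm38 all 10 members are protein-coding genes, and 6 of the 7 Nlrp members lie on chromosome 7. Nlrp9c (chr7:26322473-26403700, minus strand), Nlrp4a (chr7:26435113-26476142, plus) and Nlrp9a (chr7:26535023-26575615, plus) are neighbours within one block. Nlrp4b (chr7:10687789-10730168, plus), Nlrp9b (chr7:19991465-20073306, plus) and Nlrp14 (chr7:107166990-107198102, plus) lie elsewhere on that chromosome, and Nlrp4f is on chromosome 13 (chr13:65177111-65205977, minus). Oog3 (chr4:144157557-144162663, minus) and Oog4 (chr4:143437164-143450324, minus) lie on chromosome 4 and Oog1 on chromosome 12 (chr12:87602688-87608850, plus).

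The promoters of the oogenesins were closely alike, and so were those of Nlrp9a and Nlrp9c, and these 5 are shown for that likeness. Its part in the levels of the genes was not tested. The sequences are RefSeq windows of the 250 bases before the annotated start on GRCm38.p6, read 5′ to 3′ on the gene's strand, with matches to the E-box motif CANNTG in capitals. The Oog3 window is cut to 238 bases, because its last 12 bases lie inside the GENCODE gene.
Oog1 (chr12:87602415-87602664, plus): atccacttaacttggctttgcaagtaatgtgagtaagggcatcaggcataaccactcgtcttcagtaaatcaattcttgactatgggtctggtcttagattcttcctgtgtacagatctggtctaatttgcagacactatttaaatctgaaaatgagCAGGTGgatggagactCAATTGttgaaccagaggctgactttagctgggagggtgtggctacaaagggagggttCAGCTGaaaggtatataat
Oog4 (chr4:143450325-143450574, minus): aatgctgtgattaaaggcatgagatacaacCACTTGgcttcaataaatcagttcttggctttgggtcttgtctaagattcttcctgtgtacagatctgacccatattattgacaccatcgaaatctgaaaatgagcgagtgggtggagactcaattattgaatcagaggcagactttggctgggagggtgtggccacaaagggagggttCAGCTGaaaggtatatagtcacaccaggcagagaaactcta
Oog3 (chr4:144162664-144162901, minus): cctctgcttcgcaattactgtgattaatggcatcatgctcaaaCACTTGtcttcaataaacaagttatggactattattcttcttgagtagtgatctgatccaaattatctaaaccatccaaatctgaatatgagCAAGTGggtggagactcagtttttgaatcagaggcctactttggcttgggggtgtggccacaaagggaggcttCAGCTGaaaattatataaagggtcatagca
Nlrp9a (chr7:26534773-26535022, plus): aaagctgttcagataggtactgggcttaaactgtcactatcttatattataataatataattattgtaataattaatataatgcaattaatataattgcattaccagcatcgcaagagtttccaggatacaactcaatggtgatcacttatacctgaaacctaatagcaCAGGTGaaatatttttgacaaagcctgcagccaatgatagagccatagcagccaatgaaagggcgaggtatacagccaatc
Nlrp9c (chr7:26403701-26403950, minus): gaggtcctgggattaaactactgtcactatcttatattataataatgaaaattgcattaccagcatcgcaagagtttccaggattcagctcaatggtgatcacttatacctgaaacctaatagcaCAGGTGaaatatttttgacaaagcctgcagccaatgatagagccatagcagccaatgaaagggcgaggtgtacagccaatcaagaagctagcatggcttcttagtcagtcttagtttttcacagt

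Oog1 and Oog4 were identical at 188 of 221 aligned positions (85.1%) with 0 gaps, and Oog3 and Oog4 at 194 of 248 (78.2%) with 20 gaps. Oog1 and Oog3 were identical at 178 of 235 (75.7%) with 14 gaps, and Nlrp9a and Nlrp9c at 178 of 194 (91.8%) with 5. Gaps are counted among the positions. The alignments used the full 250 bases, with the 12 left out of the printed Oog3 window. A promoter was matched in the RefSeq table for 9 of 10 members. CANNTG, searched on both strands, was found in 9 of those 9, against 66% of all 27025 mouse promoters of that length. CAGCTG, 1 of the forms CANNTG can take, picked out after the matches were seen, stood in 5 of the 9 against 12.8% of all promoters. CACTTG stood in 3 of the 9 against 11.6%, and CACGTG in 0 against 6.05%. Also searched were TAATTG (4 against 7.34%), TAATTA (1 against 4.9%) and TATAAA (2 against 13%). The 5 include the oogenesins, whose promoters are too alike to be separate occurrences. In these CAGCTG began at position -19 (Oog1), -42 (Oog3) and -41 (Oog4) before the start. A match is a description of the letters and not a binding site.

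The total of gene counts ran from 15149564 to 29205503 in the 12 microdissected libraries and from 8652089 to 9978830 in the 6 MII libraries, so that 3 counts, taken as the limit of detection, were worth 0.103 to 0.198 CPM (counts-per-million of the library total) and 0.301 to 0.347 CPM respectively. All 17 oocyte markers had counts in both sets, and their summed level was 4.81 to 1422 CPM in microdissected and 8207 to 12371 CPM in MII libraries. Microdissected libraries also held follicle wall and stroma RNA. The 14 granulosa markers summed to 779 to 5010 CPM there and 98.5 to 188 CPM in MII oocytes, where Amhr2, Foxl2, Fst and Wt1 were at 0, and the 6 stroma markers summed to 1376 to 17910 CPM against at most 2.91 CPM, with Col1a2, Col3a1 and Lum at 0. By the edgeR fit used further on, 7 of the 14 granulosa markers were lower in MII than in primary follicle libraries. Another 3 were higher (Cyp19a1, Fshr and Esr2), and 2 of 14 had every MII library above all 12 microdissected ones. Cyp19a1 and Fshr passed the low-count filter of that fit only with the MII libraries, so their calls are a description. The 6 leukocyte markers summed to at most 35.7 CPM in microdissected and 49.9 CPM in MII libraries, with Ptprc, Adgre1 and Lyz2 at 0 in the latter. Csf1r, with 136 to 399 counts in each MII library, and Cd68 were higher and Lyz2 lower in MII than in primary follicle libraries. Cd68, too, passed the filter only with the MII libraries. The part of other cells in the MII libraries was not tested. In such bulk samples a smaller part of oocyte RNA and less of a transcript in each oocyte cannot be told apart. One library, primordial NTY replicate 3, stood apart with the lowest oocyte marker sum (4.81 CPM, 9 of 17 markers counted).

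All 10 members were counted in every MII library, and together they reached 3478 to 7246 TPM (transcripts-per-million, a level that takes gene length into account), with a median of 4573 TPM. The same sum was 0.43 to 42.3 TPM over the 12 microdissected libraries, with a median of 10.9 TPM. For each of the 10 members the lowest MII library stood above the highest of the 12 microdissected libraries in CPM. This pattern was found for 15.2% of the 25283 genes with a count in any library. It was also found for 5 of 6 other Nlrp genes of the oocyte branch, 4 of 13 other PRAME genes and 9 of 17 oocyte markers. The count of 10 members was the same with TMM library sizes and with TPM.

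**Figure D1:**
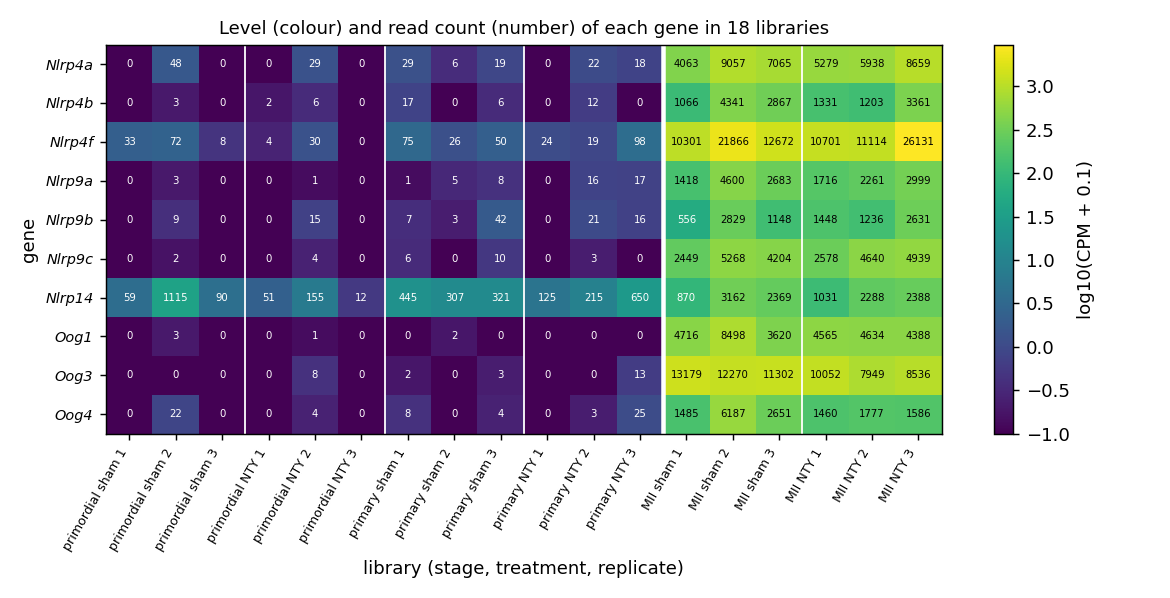
Level of the 10 members (rows) in the 18 libraries (columns), with colour for log10(CPM + 0.1) and the read count printed in each cell. The thick line separates microdissected from MII libraries; every gene has at least 556 counts in each MII library, while in microdissected libraries Nlrp14 alone is counted in 12 of 12.

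Oog3 was the highest member in MII oocytes at 1592 ± 263 TPM (SD, n = 6). The sham libraries read 1673, 1868 and 1858 TPM and the NTY libraries 1577, 1227 and 1349 TPM, so that its highest and lowest libraries differed 1.52-fold, the narrowest spread of the 10. Nlrp4f came next with 1144 ± 534 TPM, at 630, 1604 and 1004 TPM in sham and 809, 827 and 1990 TPM in NTY. Its level was below that of Oog3 in 5 of 6 libraries, the exception being MII NTY replicate 3.

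Oog1 stood at 585 ± 200 TPM. Its values lay close together in 5 of 6 libraries, with 455 and 453 TPM in sham replicates 1 and 3 and 545, 544 and 528 TPM in NTY, while sham replicate 2 reached 984 TPM. Nlrp4a measured 199, 531 and 448 TPM in sham and 319, 353 and 527 TPM in NTY (396 ± 130 TPM). Within each library the order Nlrp4f above Oog1 above Nlrp4a held in 6 of 6, although the ranges of neighbours overlapped between libraries.

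Oog4 was the most uneven oogenesin, with 177, 887 and 410 TPM in sham and 216, 258 and 236 TPM in NTY (364 ± 268 TPM). The sham libraries lay on either side of the 3 NTY libraries.

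The Nlrp9 copies were close to each other. Nlrp9a read 96.4, 375 and 236 TPM in sham and 144, 187 and 254 TPM in NTY (215 ± 97.4 TPM), and Nlrp9c read 97.7, 252 and 217 TPM against 127, 225 and 245 TPM (194 ± 65.2 TPM). Nlrp9b, which besides its oocyte transcripts is known as an inflammasome sensor of the gut epithelium, was the lowest of the 10 members, with 35.3, 216 and 94.5 TPM in sham and 114, 95.5 and 208 TPM in NTY (127 ± 70.8 TPM). Its highest and lowest libraries differed 6.1-fold.

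Nlrp14 and Nlrp4b completed the order. Nlrp14 measured 58.2, 254 and 205 TPM in sham and 85.3, 186 and 199 TPM in NTY (165 ± 76 TPM), and Nlrp4b 56.2, 274 and 196 TPM in sham and 86.7, 77.1 and 221 TPM in NTY (152 ± 90.2 TPM). Each of these was the higher of the pair in 3 of 6 libraries. All 9 pairs of neighbours in the order had overlapping ranges over the 6 libraries, and 2 of the 9 steps, Nlrp4f to Oog1 and Oog1 to Nlrp4a, held within 6 of 6.

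**Figure D2:**
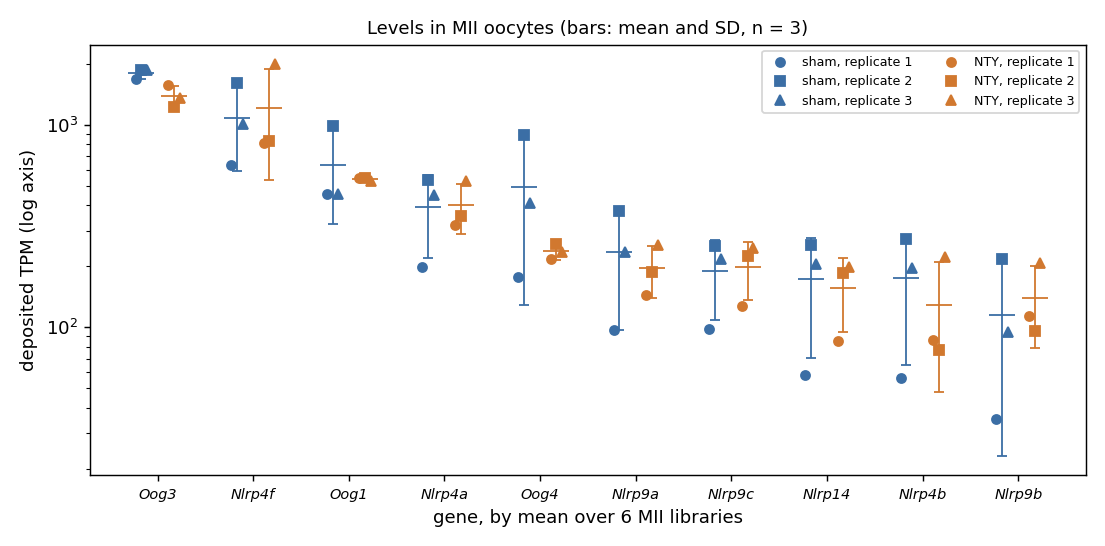
Deposited TPM (log axis) of the 10 members in the 6 MII libraries, ordered by mean, with sham in blue and NTY in orange, marker shape for the replicate number, and bars for mean and SD of 3 libraries. Sham replicate 1 is lowest for 8 members and sham replicate 2 highest for 9 in TPM (5 in CPM), and the NTY libraries lie below all sham libraries for Oog3 alone.

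MII sham replicate 1 held the lowest level for 8 of 10 members, the exceptions being Oog1 and Oog3, by TPM and by CPM alike. The highest library depended on the scale. By TPM it was MII sham replicate 2 for 9 of 10 members, the exception being Nlrp4f, whereas by CPM it was sham replicate 2 for 5, NTY replicate 3 for 4 (Nlrp4a, Nlrp4f, Nlrp9b and Nlrp9c) and sham replicate 1 for 1 (Oog3). Summed TPM of the 7 Nlrp members was 1172 in sham replicate 1, 3507 in sham replicate 2 and 3644 in NTY replicate 3, whereas the 3 oogenesins summed to 2305, 3739 and 2112 TPM in the same libraries. The ratio of Nlrp to oogenesin TPM ran from 0.509 in sham replicate 1 to 1.72 in NTY replicate 3. Total counts of these libraries were alike, at 9578956, 9978830 and 8652089. Genes with a count were fewer in every MII NTY library (13608, 12926 and 12782) than in any MII sham library (15442, 18239 and 16142). The part of this difference in the levels was not tested.

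Sequence shared with other genes limits some of these levels, since the handling of reads that map to several places is not given in the sources used here. Of the 50-base windows of the Oog1 transcripts, 89% also occurred in other genes, chiefly Gm2042 and Gm10436, so that Oog1 counts are uncertain. Gm2042 and Gm10436 had medians of 429 and 531 CPM in MII oocytes and 48 and 67 counts in all 12 microdissected libraries together. The share was 19.7% for Oog3, with Gm4350 holding most of it, and Gm4350 itself reached at most 0.344 CPM in MII libraries. It was 0.707 to 7.79% for Oog4, Nlrp4a, Nlrp4f, Nlrp9a, Nlrp9b and Nlrp9c, and 0 for Nlrp4b and Nlrp14. Nlrp9b also overlaps the pseudogene Gm18877 over 136 exonic bases. Between members, the longest coding transcripts of Nlrp9a and Nlrp9c were 88% identical, Nlrp4a and Nlrp4f 82.8%, and Oog1 and Oog3 82%, while Nlrp14 was at most 59.4% identical to any other Nlrp member over the stretch that aligned.

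Nlrp14 was the most widely counted member in follicle oocytes, with reads in 12 of 12 microdissected libraries. Primordial sham libraries held 59, 1115 and 90 counts (3.54, 37 and 3.95 TPM), primordial NTY libraries 51, 155 and 12 counts (2.15, 6.18 and 0.43 TPM), primary sham libraries 445, 307 and 321 counts (18.2, 11.5 and 11.3 TPM), and primary NTY libraries 125, 215 and 650 counts (4.45, 8.5 and 22.9 TPM). The groups overlapped except that primary sham stood above primordial NTY throughout, and primordial sham replicate 2 was the highest library at either stage.

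Nlrp14 thus made up 61.3 to 100% of the reads counted for the 10 members in microdissected libraries (median 80.8%) and 2.17 to 5.32% in MII libraries (median 3.84%), 2 ranges that do not meet. Pooled over libraries, its CPM was 17.4 times as high in MII as in microdissected libraries, against 444 (Nlrp9b) to 25804 (Oog1) times for the other 9. The 17 oocyte markers, summed, gave a ratio of 16, and singly they ran from 0.0771 (Sohlh1) to 2518 (Oosp1), with 8 of 17 above the ratio of Nlrp14. This pattern was noticed in the values and has no test.

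**Figure D3:**
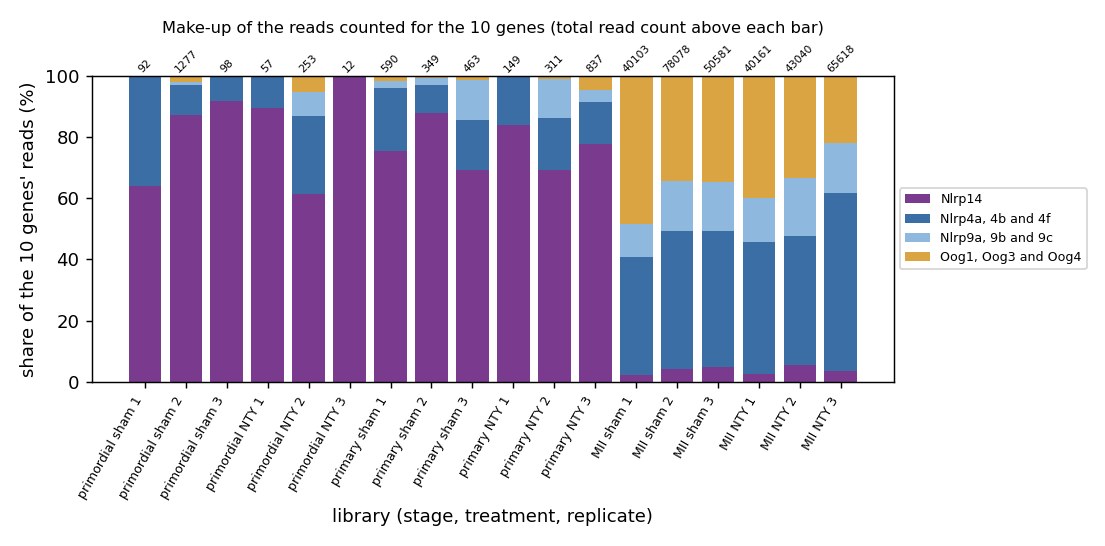
Share (%) of the reads counted for the 10 members that fell to Nlrp14, to the Nlrp4 and Nlrp9 copies and to the oogenesins, by library, with the total read count above each bar. Nlrp14 holds 61.3% or more in each of the 12 microdissected libraries and at most 5.32% in each of the 6 MII libraries.

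Nlrp4f was the other member seen in most follicle samples, with counts in 11 of 12 microdissected libraries. It had 33, 72 and 8 counts in primordial sham, 4, 30 and 0 in primordial NTY, 75, 26 and 50 in primary sham and 24, 19 and 98 in primary NTY libraries, up to 3.16 TPM. Primordial NTY replicate 3, the library poor in oocyte markers, was the one at 0.

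Its relative Nlrp4a was counted in 7 of 12 libraries with up to 48 counts, and Nlrp4b in 6 of 12 with up to 17. Nlrp9b reached 42 counts (primary sham replicate 3) and had a count in 7 of 12 libraries, as did Nlrp9a with up to 17 counts, while Nlrp9c had 25 counts in 5 libraries. More than 3 counts were reached in 6 libraries by Nlrp9b, 4 by Nlrp9a and 3 by Nlrp9c. The oogenesins were nearest to absent. Oog1 had 6 counts in all 12 libraries together, none of them with more than 3, Oog3 had 26 counts in 4 libraries, and Oog4 had 66 in 6.

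Detection varied widely within groups. Members with a count numbered 2, 9 and 2 in primordial sham, 3, 10 and 1 in primordial NTY, 9, 6 and 9 in primary sham and 2, 8 and 7 in primary NTY libraries. The highest summed member level (42.3 TPM) and the highest oocyte marker sum (1422 CPM) were in primordial sham replicate 2, and the lowest of both (0.43 TPM and 4.81 CPM) in primordial NTY replicate 3. The part of oocyte RNA content in these differences was not tested.

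The comparison of MII with primary follicle oocytes, averaged over sham and NTY, asked how member levels differed between growing and mature oocytes. All 10 members were higher in MII oocytes by edgeR's quasi-likelihood test (Benjamini-Hochberg adjusted p below 0.05), where 5580 of 15929 genes tested, 35.0%, were called higher. In the same fit the median gene differed by 1.30 on the log2 scale, and by 2.80 with another scaling (RLE), so each fold change should be read against that shift. The median over the 10 members was 9.17. Of the 10, 6 (Nlrp4b, Nlrp9a, Nlrp9c, Oog1, Oog3 and Oog4) had too few counts to pass the low-count filter in the follicle libraries alone. They could enter the test only by being high in MII oocytes. The count and the median are therefore a description, and so are the fold changes and adjusted p-values of these 6.

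Among the oogenesins, Oog1 differed by a fitted log2 fold change of 14.35 (SE 1.85, adjusted p = 9.15e-05), Oog3 by 12.51 (SE 1.80, adjusted p = 0.000264) and Oog4 by 9.20 (SE 1.96, adjusted p = 0.00152). Fitted values of genes this close to 0 depend on the prior count, so ratios of pooled CPM are given as well. Oog1 had 30421 counts in MII and 2 in primary libraries, a ratio of 39189 with a 95% counting interval of 10848 to 323607. For Oog3 (63288 against 18 counts) the ratio was 9059 (5731 to 15286), and for Oog4 (15146 against 40) it was 976 (716 to 1366). These exact binomial intervals cover counting error only.

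Nlrp9c showed the highest fold change of the Nlrp members at 11.14 (SE 1.84, adjusted p = 0.000569), followed by Nlrp4a at 9.26 (SE 1.92, adjusted p = 0.00131) and Nlrp4b at 9.14 (SE 1.92, adjusted p = 0.00142). Nlrp4f and Nlrp9a both stood at 8.94 (adjusted p = 8.38e-05 and 0.00109), and Nlrp9b at 7.33 (SE 1.85, adjusted p = 0.00423). Pooled CPM ratios of these 6, with intervals for counting error only, ran from 285 (231 to 355) for Nlrp9b to 3265 (2090 to 5424) for Nlrp9c.

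Nlrp14 differed least, by 3.11 (SE 1.08, adjusted p = 0.022), with a pooled CPM ratio of 15.1 (counting interval 14.4 to 15.9). That interval covers counting error only and not the spread between libraries. Its call was near the threshold. Adjusted p was 0.0521 without primary sham replicate 3, 0.0617 without MII sham replicate 2, 0.0538 without MII sham replicate 3, 0.0544 with a replicate block and 0.0973 when genes of low count were kept in the test, while the fold change was 2.91 to 3.45 with 1 library left out, 2.97 and 2.93 in the last 2 fits and 4.63 with RLE scaling. Over all 24 alternatives its adjusted p ran from 5.28e-11 (DESeq2) to 0.0973, and the other 9 members remained below 0.05 in each. For the 6 of those 9 that passed the low-count filter only with the MII libraries, this is a description.

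**Figure D4:**
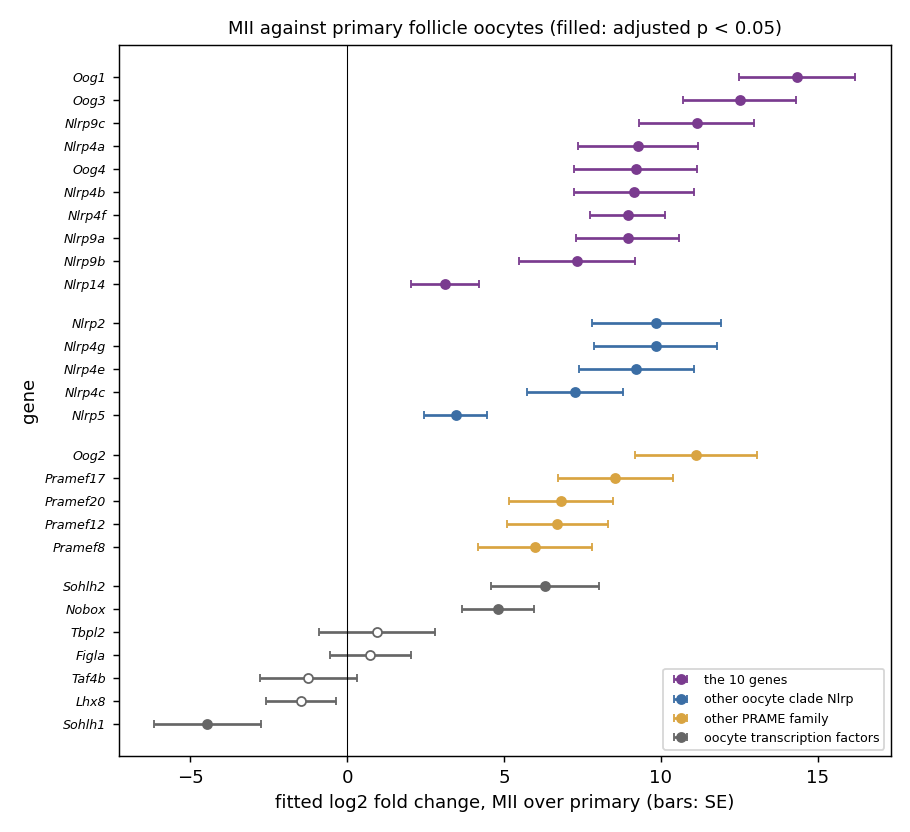
Fitted log2 fold change of MII over primary follicle oocytes with SE bars for the 10 members, other oocyte clade Nlrp genes, other PRAME genes and oocyte transcription factors that were tested; filled points have adjusted p below 0.05. The members run from 3.11 (Nlrp14) to 14.35 (Oog1), and Nlrp5 at 3.46 lies near Nlrp14.

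Relatives outside the 10 members were counted in the same way. Of 6 other Nlrp genes of the oocyte clade, 5 were tested and 5 were higher in MII oocytes, from 3.46 (SE 1.01, adjusted p = 0.00914) for Nlrp5, a subunit of the subcortical maternal complex, to 9.85 (SE 2.05, adjusted p = 0.0016) for Nlrp2. Like Nlrp14, Nlrp5 was counted in 12 of 12 microdissected libraries, with 36 to 1629 counts. Of 13 other PRAME genes 5 were tested and 5 were higher, among them Oog2 (11.12, SE 1.94, adjusted p = 0.00109) and Pramef12 (6.70, SE 1.60, adjusted p = 0.00316). Of the 13, 6 were at 0 in all MII libraries. Nlrp4c, Oog2, Pramef17 and Pramef20 did not pass the low-count filter in the follicle libraries alone, so their place among the tested genes nearly fixed their direction.

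The immune branch of the family was read out beside them. Of 23 immune NLR and inflammasome genes, 14 had 0 counts in all 6 MII libraries, including the sensor Nlrp3, the adaptor Pycard and the protease Casp1, a share close to the 61.1% of all 53715 genes that had none. In microdissected libraries 11 of the 23 had a count, with up to 978 for Nod1. Of the 23, 6 were tested against primary follicles. Nlrc3, Nlrc4, Nod2, Naip1 and Naip5 passed the filter only with the MII libraries and were called higher there, Nlrc3 with 50 to 255 counts in each MII library against 0 in the 12 others, and Nod1, the one with enough follicle counts, was not called (-0.74, SE 2.38, adjusted p = 0.829). The list as a whole summed to 39.5 to 88.8 CPM in MII libraries, against 4187 to 7824 CPM for the 10 members.

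Of 7 oocyte transcription factors, Nobox (4.81, SE 1.15, adjusted p = 0.00308) and Sohlh2 (6.30, SE 1.72, adjusted p = 0.00663) were higher and Sohlh1 (-4.46, SE 1.71, adjusted p = 0.0377) lower in MII oocytes, and the other 4 did not pass the test. Sohlh2 was another gene that passed the low-count filter only with the MII libraries. Among the 3 known partners, Uhrf1 was higher (4.42, SE 1.19, adjusted p = 0.00605) and Ralgds lower (-4.51, SE 1.69, adjusted p = 0.0327). Slc8b1 had 0 counts in all 6 MII libraries and up to 155 in microdissected ones, where granulosa and stroma RNA were also measured.

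NTY was compared with sham in MII oocytes alone. None of the 10 members passed the edgeR test, which called 0 of 12209 genes (0%), 280 of them having an unadjusted p below 0.05. DESeq2 called 29 genes and 0 members. The median fold change over the members was -0.06 and over all genes 0.00 on the log2 scale.

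Oog4 had the largest difference, -0.91 on the log2 scale (SE 0.42, unadjusted p = 0.0591, edgeR adjusted p = 1), with a mean TPM ratio of NTY to sham of 0.481. It rested on MII sham replicate 2, without which it was -0.34, and its 2 groups of values overlapped. For Oog3 the difference was -0.35 (SE 0.26, edgeR adjusted p = 1), although all 3 NTY values lay below all 3 sham values, which was the case for 5.72% of the 12365 genes with at least 1 TPM in 3 or more MII libraries. Oog1, at -0.15 (SE 0.30), and Oog2, an oogenesin outside the 10 members, at -0.53 (SE 0.32), had adjusted p = 1 by edgeR as well.

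The Nlrp members fell on both sides of 0, from -0.25 (SE 0.57) for Nlrp4b to 0.47 (SE 0.55) for Nlrp9b, with Nlrp14 at 0.00 (SE 0.47). For Nlrp4a, Nlrp4b, Nlrp4f, Nlrp9a, Nlrp9b, Nlrp9c and Oog1 the sign changed when 1 library was left out. With SEs of 0.26 to 0.57, differences of this size were not resolved by 3 libraries a group.

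Within follicle oocytes 4 of the 10 members, Nlrp4a, Nlrp4f, Nlrp9b and Nlrp14, had enough counts to be tested. For NTY against sham in primordial follicles edgeR called 0 of these 4 and 1 of 10522 genes (0.00950%), with 1145 genes and 0 members at an unadjusted p below 0.05. Nlrp14 differed by -2.52 on the log2 scale (SE 2.88, adjusted p = 0.842) and Nlrp4f by -2.02 (SE 2.52, adjusted p = 0.861). In primary follicles the test called 0 of 4 and 0 of 10522 genes (0%), with 858 genes and 0 members at an unadjusted p below 0.05, and Nlrp14 differed by 0.27 (SE 2.72, adjusted p = 1).

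Primary against primordial follicle oocytes, averaged over both treatments, gave 0 of 4 members and 0 of 10522 genes (0%), with 1132 genes and 0 members at an unadjusted p below 0.05. The 4 differences were all above 0, from 0.45 (SE 1.74) for Nlrp4a to 1.98 (SE 1.75, adjusted p = 0.792) for Nlrp9b, with Nlrp14 at 0.99 (SE 1.94, adjusted p = 0.974). In the same fit the median gene stood at 0.29 and the median of the 17 oocyte markers at 0.64, so this direction was not particular to the members. When the NTY effect itself was compared between primary and primordial follicles, 0 of 4 members and 1 of 10522 genes (0.00950%) were called, with 1246 genes and 0 members at an unadjusted p below 0.05, and Nlrp14 stood at 2.78 (SE 3.92, adjusted p = 0.905). DESeq2, which called 479 to 760 genes in these 4 comparisons, called 0 members, and leaving out any 1 library, primordial NTY replicate 3 included, likewise gave 0. With SEs of 1.74 or more on the log2 scale, differences of the sizes given were not detectable at this spread.

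The genes whose pattern over the 18 libraries was most like that of the members were ranked by Pearson's r between each gene's log2(CPM + 1) and the mean of the same value over the 10 members, among genes with at least 10 CPM in some group. The 10 with the highest r, all from 0.997 to 0.998 among 11082 genes, were Nlrp4g, Gm47180, C87414, Fbxw28, Gm45886, Fbxw19, Gm2042, Gm47179, Gm48342 and Klf17. Nlrp4g and Gm47180 share 50-base windows with Nlrp4f, and Gm2042 shares them with Oog1. Klf17, a Krüppel-like transcription factor, was the most abundant of these with a median of 2053 CPM in MII and 0.194 CPM in microdissected libraries. Since the 2 sets of libraries differ in so many genes, 18.6% of the 11082 genes had r above 0.9, and r here is a description without a test.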

How the data were processed

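Counts were summed reads per gene and TPM values were levels per gene, both deposited by the authors for all 18 libraries. Per the labels, processing used Trim Galore 0.4.1, TopHat2 and featureCounts on mm10; settings, annotation and the handling of multiply mapped reads are not given in the sources used here. TPM of the 10 members matched exon lengths of GENCODE M21 gene models, as did 93.8% of 11176 genes compared within 1%. The table of TPM left out genes of the count table (28252 of 53715 genes are listed).

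Counts were fitted with edgeR 4.0.16 (R 4.3.3) by the quasi-likelihood test with TMM scaling, filterByExpr and Benjamini-Hochberg adjustment over all genes tested, calling adjusted p below 0.05. MII libraries (12209 genes), follicle libraries (10522 genes) and all 18 libraries (15929 genes) were fitted apart, because MII libraries were made by another method. SEs were derived from the fold change and its F statistic. Levels between genes used TPM, and CPM was the count over the library total. The fits were also run on simulated counts, whose recovery is not given here and on which no result above rests. Alternatives were RLE scaling, no filter on low counts, DESeq2 1.42.0, limma 3.58.1 on log2(TPM + 1), a replicate block, summing primary NTY replicates 2 and 3, whose titles carry related codes, and leaving out each library. All replicate pairs differed by more than counting error, which cannot show that they came from separate material. Each library was counted as 1 sample, primary NTY replicates 2 and 3 included. Members and gene lists were chosen with earlier results of these data known, and all members are named, with other genes named from fixed lists or as the 10 most alike. Promoters are RefSeq sequences on GRCm38.p6, and shared sequence was found as exact 50-base windows of GENCODE transcripts. Depth limits single values as given with the totals.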

Additional observations from a re-analysis of the deposited data

How the results depend on the processing

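The 10 members called in MII against primary follicle oocytes became 9 with no filter on low counts and with a replicate block (9 in each, Nlrp14 at adjusted p = 0.0973 and 0.0544 by edgeR), 10 under the other 4 alternatives over all libraries, and 9 to 10 when any 1 library was left out. In the other 5 comparisons 0 members were called under every alternative, 0 to 0 when a library was left out. Whether equal replicate numbers pair the samples is not known. Deviations of same-numbered libraries from their group means correlated at -0.0767 to 0.0946, which cannot decide it with 3 libraries a group. The replicate block moved no count of members by over 1.5 times. The number of members whose MII libraries lay above all 12 follicle libraries was 10 by each scaling.

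In MII oocytes the log2 fold change of NTY against sham, with 1 library left out at a time, ran from -0.21 to 0.31 for Nlrp4a, -1.04 to 0.10 for Nlrp4b, -0.39 to 0.57 for Nlrp4f, -0.48 to 0.24 for Nlrp9a, -0.06 to 1.14 for Nlrp9b, -0.11 to 0.41 for Nlrp9c, -0.37 to 0.14 for Oog1, -0.35 to 0.29 for Nlrp14, -0.47 to -0.21 for Oog3 and -1.25 to -0.34 for Oog4. The other alternatives turned 0 of these, except that Nlrp14, at 0.00, lay on either side of 0 (-0.02 with no filter, 0.04 with RLE). Over all genes, DESeq2 called 760, 479, 582 and 742 genes in the comparisons within follicle oocytes where edgeR called 1, 0, 0 and 1; with no filter the NTY effect compared between stages gave 11 calls and the stage comparison 3, summing the related libraries gave 3 for NTY in primordial follicles, and limma gave 3 for NTY in primary follicles; the cause was not tested. Low counts in follicle oocytes left 6 of 10 members outside the test there.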
